A study of Mus musculus with 2 samples.

Results

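The collagen-expressing cells without CD45 are the barcodes of a bead-isolated tumour preparation that held collagen transcripts and no transcript of Ptprc, the gene that encodes the leukocyte surface protein CD45. Members were chosen by a rule on measured counts. A barcode had to hold at least 300 genes and under 10% mitochondrial UMIs (unique molecular identifiers, each standing for 1 captured transcript), no Ptprc UMI, at least 5 UMIs summed over Col1a1, Col1a2, Col3a1, Col4a1 and Col4a2, and under 100 UMIs per 10000 from C1qa, C1qb, C1qc and Lyz2, which mark macrophages. The rule found 208 cells among 11473 filtered barcodes in the wildtype library and 133 among 12112 in the Glut5 KO library, 341 of 23585 in all.

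The samples were intracranial tumours of CT-2A, a mouse glioma line, grown in adult mice and taken at 14 days. One library came from wildtype (WT) hosts and 1 from hosts labelled Glut5 KO; the series' design text calls the same mice a knockdown. Glut5, encoded by Slc2a5, is a fructose transporter of the cell membrane. In both groups the same line was implanted, so the altered gene belonged to the host, and in both the tumour was dissociated, magnetic beads kept CD45+ cells, and a droplet kit that counts the 5′ ends of transcripts was used. The labels do not say how many animals were pooled or their sex. With 1 library per genotype there is no replicate check, so no test was made: ratios below compare these libraries, and intervals are 95% exact intervals that cover counting error only. PCR and cell-to-cell clumping are not covered, and reads of a gene from a few cells make such an interval too narrow.

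The isolation selected for CD45, so these cells are what the beads carried over and their number says little of how many were in the tumour. They made up 1.81% (1.58 to 2.07, Clopper-Pearson) of filtered WT barcodes and 1.10% (0.920 to 1.30) of filtered Glut5 KO barcodes, a ratio of shares of 0.606 (0.484 to 0.757). The share was lower in the Glut5 KO library under each alternative rule tried, with ratios from 0.502 to 0.707. The cells were deep in both libraries, with a median of 14018 UMIs in WT (519 to 51159) and 9042 in Glut5 KO (661 to 65561), against 8603 and 6509 in the other filtered barcodes. The rule asks for a fixed number of UMIs, so the lower depth of the Glut5 KO library moves with its lower share; its part in the difference was not tested. Of all barcodes, 188 occurred in both libraries, and none of these was a member in both; 1 WT and 3 Glut5 KO members had a barcode that also occurred in the other library.

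At the edge of the rule, 11 WT and 12 Glut5 KO members held 5 to 6 collagen UMIs, and 9 and 20 barcodes stood just outside with 3 to 4. Another 25 barcodes in each library held enough collagen but also Ptprc, and 92% and 80% of these had Twist1 or Prrx1, the mesenchymal factors described below. A further 7 and 4 were kept out by their macrophage transcripts.

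Brain tumours can hold several kinds of cell that make collagen. Mural cells (pericytes and smooth muscle) wrap vessels and are known for Rgs5, Kcnj8, Abcc9 and Higd1b, or for Myh11, Tagln and Cnn1. Fibroblasts of the meninges and vessel sheaths are known for type I collagen, Dcn and Lum, and endothelial cells make the type IV collagen of the vessel basement membrane. Glioma lines can also take on a mesenchymal program with its own matrix. Type I collagen is assembled from chains encoded by Col1a1 and Col1a2, on different chromosomes, while type IV collagen is assembled from chains encoded by the neighbouring genes Col4a1 and Col4a2.

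The 250 bases before the RefSeq start sites of Col1a2, Col3a1 and Col4a1 (GRCm38.p6) are shown because these collagen genes behaved differently in the cells. Col1a2 was nearly absent, Col3a1 was present in almost every cell, and Col4a1 was counted together with its head-to-head neighbour Col4a2. Each is written 5′ to 3′ on the gene's strand with every CG in capitals; the table holds no entry for Col1a1. For Col1a2 the RefSeq start site (4505618) differs from the GENCODE gene start (4504814), so its window lies inside the GENCODE gene.
Col1a2 (chr6:4505368-4505617, plus strand): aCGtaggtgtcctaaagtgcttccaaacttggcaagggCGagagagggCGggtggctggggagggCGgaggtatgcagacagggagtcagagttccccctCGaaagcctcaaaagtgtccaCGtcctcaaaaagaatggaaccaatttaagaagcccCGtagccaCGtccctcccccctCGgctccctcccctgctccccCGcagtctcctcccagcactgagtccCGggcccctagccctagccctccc
Col3a1 (chr1:45311288-45311537, plus strand): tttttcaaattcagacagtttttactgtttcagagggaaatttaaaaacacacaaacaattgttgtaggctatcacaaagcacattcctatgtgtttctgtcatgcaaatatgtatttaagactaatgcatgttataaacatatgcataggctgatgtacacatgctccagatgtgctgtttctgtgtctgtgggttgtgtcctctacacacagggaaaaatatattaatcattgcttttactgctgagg
Col4a1 (chr8:11312827-11313076, minus strand): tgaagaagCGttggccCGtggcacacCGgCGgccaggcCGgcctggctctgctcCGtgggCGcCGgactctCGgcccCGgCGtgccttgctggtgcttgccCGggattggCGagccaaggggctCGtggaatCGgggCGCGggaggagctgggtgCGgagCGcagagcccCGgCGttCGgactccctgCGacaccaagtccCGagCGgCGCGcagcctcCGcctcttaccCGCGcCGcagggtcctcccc
The Col1a2 window held 11 CG (read on either strand alike), the Col3a1 window 0 and the Col4a1 window 31. Of 32851 RefSeq promoters of 250 bases, 92.1% held at least 1 CG, the median number was 6, 35.6% held at least 11 and 5.19% held at least 31. The start sites of Col4a1 and Col4a2 lay 21 bases apart, so their upstream windows run into each other's first bases. These are descriptions of sequence, and CG content does not follow the order of the counts: the window with 0 CG belongs to the collagen found in the most cells.

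Of the 5 genes that chose the cells, Col3a1, a fibrillar chain, was the most widely detected, in 203 of 208 WT and 130 of 133 Glut5 KO cells. It ran from 0 through a median of 15 to 216 UMIs per cell in WT and from 0 through 9 to 250 in Glut5 KO. Col4a1 was detected in 200 and 129 cells (0, 9 and 139 UMIs as lowest, median and highest in WT; 0, 7 and 132 in Glut5 KO), and Col4a2 in 187 and 108. Nearly every cell thus carried a fibrillar and a basement membrane transcript. Col1a1 was split: 108 WT and 88 Glut5 KO cells held it, up to 295 and 417 UMIs in 1 cell, and 100 and 45 cells held none although their median depth was higher (17597 UMIs over both libraries, against 10132.5 in cells with Col1a1). Lymphocyte-marked barcodes, which should lack these genes, held Col1a1 in 0.409% and Col3a1 in 0.595%, at a median of 7198 UMIs against 12079 in the collagen-expressing cells. Counts are of 5′ ends and not divided by length, and these 5 genes are a description, since they made the choice.

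Col1a2 was at odds with Col1a1. Over both libraries the cells held 6680 Col1a1 UMIs and 111 Col1a2 UMIs. Of the Col1a2 UMIs, 99 came from 4 cells: 25, 17 and 24 in 3 WT cells and 33 in 1 Glut5 KO cell. In the other 337 cells there were 6318 Col1a1 UMIs and 12 Col1a2 UMIs, a ratio that stood at 515 in WT and 543 in Glut5 KO. Of the 122 cells with at least 10 Col1a1 UMIs, 113 had no Col1a2 UMI. Col1a2 was thus counted in some cells of both libraries, and why the other cells held so little of it was not tested. Col1a1 lies on chromosome 11 (94936224 to 94953042, GRCm38, GENCODE vM21) and Col1a2 on chromosome 6 (4504814 to 4541544).

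**Figure D1:**
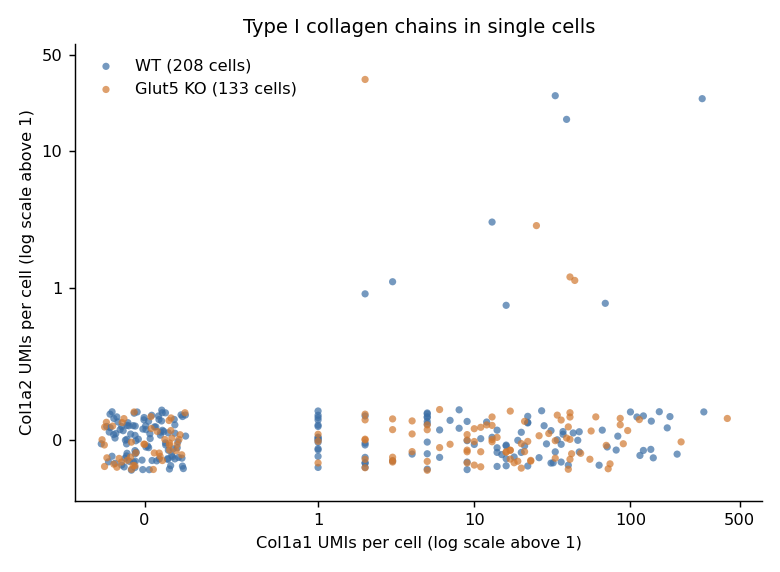
Col1a2 against Col1a1 UMIs in each of the 208 WT (blue) and 133 Glut5 KO (orange) cells, on axes that are logarithmic above 1 and spread a little at 0 and around whole Col1a2 values for legibility. The points lie along the bottom whatever their Col1a1 count, except for 4 cells above 10 Col1a2 UMIs.

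The matrix program around these chains was broad. Type VI collagen, a beaded filament of interstitial matrix, was present as Col6a1 (541 CPM, UMIs of the gene per 1000000 summed UMIs, in WT; 510 in Glut5 KO) and Col6a2 (578 and 580), and Col8a1, a short-chain collagen, at 318 and 299. Type V chains, which set fibril width, were present as Col5a1 (198 and 238) and Col5a2 (194 and 177). Serpinh1, the collagen chaperone HSP47, stood at 2109 CPM in WT and 1659 in Glut5 KO against 15.8 in the other barcodes, and was detected in 204 of 208 and 126 of 133 cells. Bgn, a small proteoglycan, stood at 1940 and 1492 CPM against 12.5. Sparc (1944 and 1750), Ccn1 (1215 and 1571), Postn (616 and 713) and Spp1 (1687 and 1410) were also plentiful, while Lox (2 and 3 UMIs) and Col14a1 (1 and 1) were at or under the floor of 3 counts. These levels stand beside the rest of the barcodes as a description; the collagen rule chose cells of this kind.

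The genes named above as known for mural cells were at or near 0, but other genes of the mural lists were not. Rgs5 gave 2 UMIs in WT and 0 in Glut5 KO, Kcnj8 1 and 0, Abcc9 2 and 0, and Higd1b, Atp13a5 and Cox4i2 0 in both. Several contractile genes were as low: Tagln 3 and 0, Myh11 1 and 1, Des 4 and 0, Cnn1, Lmod1 and Pln 0 in both. A count of 0 has an upper limit of 1.09 CPM in WT and 2.19 CPM in Glut5 KO, and the floor of 3 counts stands at 0.887 and 1.78 CPM. Pdgfrb, a growth factor receptor that mural cells share with fibroblasts and other mesenchyme, was detected in 139 of 208 and 81 of 133 cells, at 115 and 146 CPM. Acta2, smooth muscle actin, was found in 51 and 24 cells and ran up to 259 UMIs in 1 WT cell, which alone held 46.2% of the WT total. Of the 14 pericyte genes, 5 had at least 20 UMIs over both libraries, and the list summed to 824 UMIs in WT and 363 in Glut5 KO. Of the 11 smooth muscle genes 3 had as many, and that list summed to 698 and 156. At least 4 of the 14 pericyte genes were detected in 10 WT and 3 Glut5 KO cells, and at least 4 of the 11 smooth muscle genes in 1 and 0.

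The fibroblast list gave a divided answer. Serpinf1, which encodes the secreted factor PEDF, was detected in 181 and 102 cells (715 and 623 CPM). Mgp, an inhibitor of matrix calcification, was detected in 109 and 83 (1214 and 1365 CPM). The proteoglycans Dcn and Lum were found in 52 and 53 WT and 37 and 27 Glut5 KO cells, and up to 138 and 81 UMIs in 1 WT cell. Pi16 (1 UMI in all), Slc22a6 (0) and Mfap5 (8 UMIs, from 1 WT cell) were all but missing, as was Col1a2. At least 4 of the 15 fibroblast genes were detected in 36.1% of WT and 42.1% of Glut5 KO cells.

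Of the neural glioma genes, Olig1, Olig2, Fabp7, Ptprz1, Bcan, Ncan and Sox11 were at 0 in both libraries. Sox9, a transcription factor of glia and of cartilage, was detected in 118 and 61 cells (128 and 131 CPM), Nes, an intermediate filament of precursors, in 112 and 56, and Sox2 in 41 and 13. Gfap gave 3 and 7 UMIs. At least 4 of the 14 genes were found together in 1 cell. The mesenchymal list was the one that most cells held, with at least 4 of its 15 genes in 191 of 208 WT (91.8%) and 111 of 133 Glut5 KO cells (83.5%). The mesenchymal transcription factors Twist1 and Prrx1 were detected in 171 and 178 WT cells and in 105 and 106 Glut5 KO cells. Their levels were 231 and 258 CPM in WT and 236 and 226 in Glut5 KO, against 2.05 and 2.11 in the other barcodes. Hmga2, a chromatin protein of embryonic and tumour cells, was detected in 104 and 64 cells (146 and 196 CPM). Twist1 and Prrx1 also mark fibroblasts, and leukocytes express Cd44, Plaur and Axl of the same list, so the list does not separate tumour cells from stroma by itself. No profile of cultured CT-2A was used here, and no cell type name is given to the cells.

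Genes of other brain and blood cells were seldom held together. Aqp4, Mog, Mobp, Sox10, Snap25, Rbfox3 and the haemoglobin genes were at 0 in both libraries, and no cell held 4 genes of the astrocyte, oligodendrocyte, oligodendrocyte precursor or neuron lists. Single genes of these lists were detected more widely. The neuron list summed to 1009 UMIs in WT and 461 in Glut5 KO, and 173 of 341 cells held none of its genes. The astrocyte list summed to 489 and 244 UMIs, with 232 and 139 from Aldoc, and 137 cells held none. Endothelial genes were held by few cells: Cldn5, a tight junction protein, gave 69 UMIs in WT and 32 in Glut5 KO, in 2 cells each. Leukocyte transcripts were more common. At least 4 of 15 macrophage genes were detected in 42 WT (20.2%) and 27 Glut5 KO cells (20.3%), and at least 4 of 11 dendritic genes in 18 and 24. The pan-leukocyte list summed to a median of 0.900 UMIs per 10000 in WT (0 to 34.7) and 1.57 in Glut5 KO (0 to 71.6). Whether these UMIs come from free RNA, doublets or the cells themselves was not tested.

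**Figure D2:**
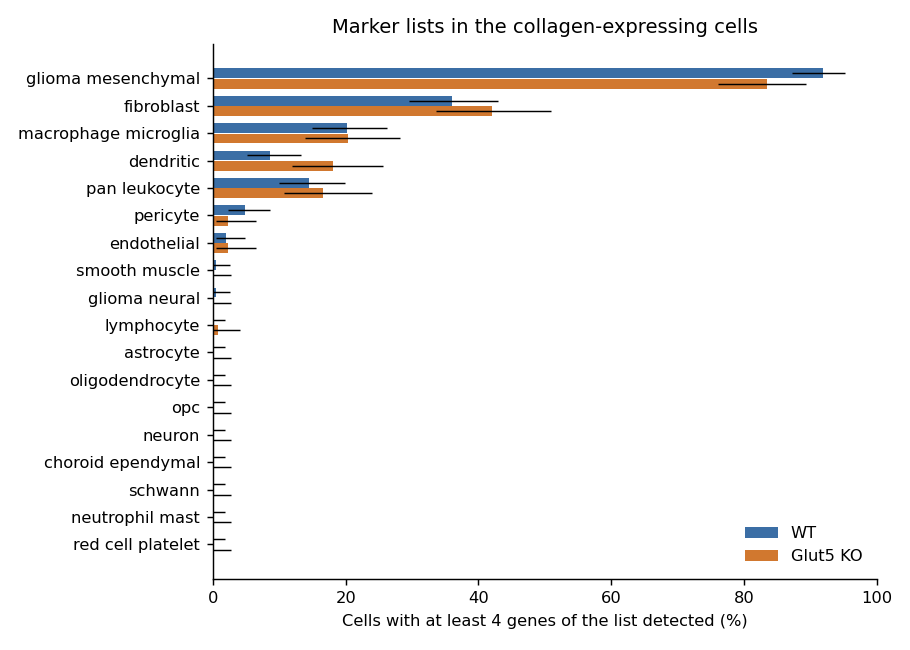
Percentage of the 208 WT (blue) and 133 Glut5 KO (orange) cells with at least 4 genes of each marker list detected, with 95% exact binomial intervals. The mesenchymal list leads at 91.8% and 83.5%, the fibroblast list follows at 36.1% and 42.1%, and the pericyte list reaches 4.81% at most.

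To set the shares at equal depth, each cell was thinned to 2000 UMIs, which left out 9 WT and 13 Glut5 KO cells. Col1a1 was then found in 36.7% (29.98 to 43.8) of WT and 52.5% (43.2 to 61.7) of Glut5 KO cells, and in 51.9% and 66.2% before thinning. Col4a1 was found in 65.3% and 70.0%, Twist1 in 35.2% and 38.3%, and Pdgfrb in 26.1% and 30.8%, with intervals that overlap between the libraries. In thinned lymphocyte-marked barcodes these genes were found in 0.0811% to 0.405%.

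Transcripts of the sex chromosomes, which the rule did not use, were one-sided in these cells. Xist, the RNA that silences an X chromosome in female cells, was detected without any of the Y genes Ddx3y, Eif2s3y, Kdm5d and Uty in 175 of 208 WT cells (84.1%) and 95 of 133 Glut5 KO cells (71.4%). A Y transcript was found in 1 WT cell and 5 Glut5 KO cells, 3 of which also held Xist. In the other filtered barcodes the libraries were mixed: 2716 of 11265 WT barcodes held Xist alone and 3619 a Y transcript alone, and 3378 and 2644 of 11979 in Glut5 KO. Y transcripts summed to 1.18 CPM in WT and 3.56 in Glut5 KO collagen-expressing cells, against 69.5 and 57.8 CPM in the rest. The cells with neither, 32 in WT and 33 in Glut5 KO, had medians of 8742 and 2690 UMIs. Over all members the medians were 14018 and 9042, and in the other barcodes 8603 and 6509. Some cells with neither were deep, such as a WT cell with 38898 UMIs.

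Def8, a gene of lysosome positioning on chromosome 8 (123423527 to 123463270), was chosen after its values were seen because it is no matrix gene and was as widespread as the collagens. It stood at 2604 CPM in WT and 2652 in Glut5 KO cells against 85.6 in the other barcodes. Per cell it ran from 0 through a median of 32 to 218 UMIs in WT, and from 0 through 18 to 265 in Glut5 KO. At least 5 Def8 UMIs were held by 89.3% of the 270 cells with Xist and no Y transcript, by 2 of the 6 cells with a Y transcript, by 32 of the 65 cells with neither (49.2%, at a median of 4054 UMIs), and by 3.17% of other WT and 2.997% of other Glut5 KO barcodes.

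Small sets of cells departed from this pattern. The 4 cells with at least 10 Col1a2 UMIs carried Dcn at 3623 CPM and Mgp at 5982, against 111 and 1211 in the members outside the small sets. Their Mgp was uneven, at 0, 306 and 85 UMIs in the 3 WT cells and 30 in the Glut5 KO cell. Cluster 2, described below, held Mgp at a like level, 5657 CPM. The 3 WT cells of the Col1a2 set held 57, 54 and 33 UMIs of Vtn, a matrix protein that brain pericytes express, and the Glut5 KO cell none. Def8 was at 0 in 2 of these WT cells and at 124 UMIs in the third, and Twist1 was at 0, 0 and 12. The 4 cells with at least 10 Cldn5 UMIs held 11 to 13 of the 13 endothelial genes, 0 UMIs of Col1a1, Col3a1, Twist1, Prrx1 and Xist, and Def8 in 1 of the 4. Their Col4a1 counts were 108, 10, 3 and 5, so the rule took them in on type IV collagen alone. One WT and 1 Glut5 KO cell of this set held Y transcripts (4 and 2 UMIs).

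Clustering the cells without the rule's genes, at a resolution of 0.5, gave 5 clusters of 41 to 88 cells, over which the libraries were spread unevenly. Cluster 0 held the most WT cells (62 of 208, with 22 of 133 Glut5 KO cells) and cluster 3 the most Glut5 KO cells (54, with 34 WT cells). The clusters were formed on genes that differ between the libraries, so these numbers are a description and not a separate result. Cluster 2 (61 cells) was led by Lum, Dcn, Ccn5, Ecrg4 and Mfap4, with 3 fibroblast markers among its top 10. It also held Def8 at 2581 CPM, Twist1 at 385 CPM, Xist without Y transcripts in 48 cells, and Col1a1 at 5844 CPM beside Col1a2 at 141, so its markers divide and it is called by its leading genes. Cluster 1 (67 cells) was led by Fosl1, Ube2c and Ccna2 and was the deepest (median 28456 UMIs). It held Col1a1 at 10.5 CPM and Mki67, a mark of dividing cells, at 95.9 CPM, where cluster 2 had 0 Mki67 UMIs. Cluster 0 (84 cells) had weak leaders (Fgf1, 2.53-fold over the others). Cluster 3 (88 cells) was led by Ifit3, Ifit1 and Rsad2, interferon-response genes, and was the shallowest (median 6404 UMIs). It was also the richest in Gm42418, a predicted gene that overlaps a ribosomal RNA repeat, at 47848 CPM against 3145 to 12564 in the others. Of its cells, 10 were in the top 8% of doublet scores, against 0 to 3 in the other clusters. Cluster 4 (41 cells) was led by H2-Aa, Cd74 and H2-Ab1, genes of MHC class II antigen presentation. The macrophage gene Lyz2 came next, at 607 CPM against 13.3 in the other clusters, and C1qa stood at 549 against 29.1. Cluster 4 was the richest in leukocyte transcripts, with a median of 15.3 pan-leukocyte UMIs per 10000 against 0.524 to 1.26 in the others. All 4 cells with Cldn5 UMIs were in it. Twist1 or Prrx1 was detected in 35 to 82 cells of each cluster, and Def8 lay between 2242 and 3147 CPM in all 5.

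**Figure D3:**
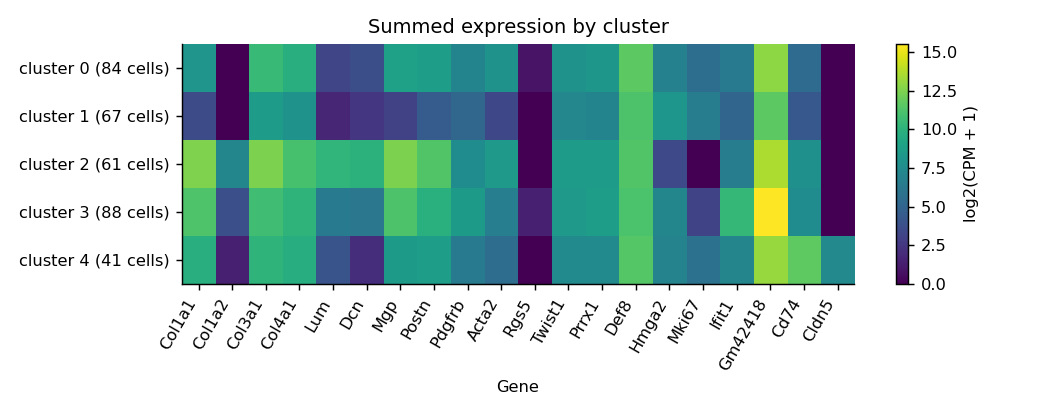
Summed expression, as log2(CPM + 1), of 20 genes (columns) in the 5 clusters (rows). Def8, Twist1 and Prrx1 keep a like colour down all rows, Col1a1, Lum, Dcn and Mgp are highest in cluster 2, and Rgs5 is dark throughout.

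No cluster held 3 mural markers among its top 10 at any resolution tried, and no cluster was given a cell type name, so no comparison of genotypes within a class was made. Across single cells, collagen UMIs per 10000 ran against the summed cell cycle list (Spearman's rho -0.63 in 208 WT and -0.64 in 133 Glut5 KO cells). They also ran against depth (-0.52 and -0.59), which both measures share.

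Slc2a5, the targeted gene, had 0 UMIs in the collagen-expressing cells of both libraries, so these cells cannot check the labels. In the other barcodes it gave 384 UMIs in WT and 1 in Glut5 KO. Other sugar handling genes were measured at low levels. Slc2a1, the main glucose transporter of many cells, stood at 28.4 CPM in WT and 67.0 in Glut5 KO (log2 ratio 1.24, 0.57 without the cell with the most UMIs in each library, and 0.046 in cells with at least 10 collagen UMIs). Khk, which phosphorylates fructose, gave 5 and 12 UMIs, and Slc2a8 41 and 12. Of the 9 measured genes of the fructose, polyol and hexose list, 1 was at least 1.5-fold higher and 2 were lower in Glut5 KO. Over all genes with at least 20 UMIs, 8.85% were as much higher and 5.45% as much lower. The glycolysis list (16 genes, median log2 ratio -0.08) and the nuclear respiratory chain list (34 genes, -0.09) held 1 and 0 genes at least 1.5-fold apart.

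A set of genes chosen earlier because they differed between the libraries' leukocytes served as a comparison of these cells with the rest. Sh3bgrl3 (chromosome 4, 134127406 to 134128789), a small cytoskeletal protein, stood at 316 CPM (298 to 336) in WT and 304 (278 to 331) in Glut5 KO collagen-expressing cells, a log2 ratio of -0.06 (-0.21 to 0.10). In the other barcodes it stood at 1692 and 701 CPM, a log2 ratio of -1.27 (-1.28 to -1.26). Its neighbour Cep85, a centrosome protein (chromosome 4, 134129858 to 134187112), had a log2 ratio of 0.26 (-0.43 to 0.91) in these cells on 54 and 32 UMIs, and of -3.26 (-3.37 to -3.15) in the rest. Ndufs5, a respiratory complex I subunit, was at -0.39 against -1.11, and Stmn1, a microtubule regulator, at -0.21 against -0.69, both in the same direction as the rest but smaller. Dcstamp, 93.3 CPM in the other Glut5 KO barcodes and 6.79 in WT, gave 3 and 0 UMIs in these cells. These genes were chosen for a difference among leukocytes, so large ratios in the rest follow from the choice. Marcksl1, an actin-binding protein, was at -0.04 (-0.16 to 0.07) in the collagen-expressing cells and at 0.47 (0.45 to 0.50) in the rest. Dhrs3, a retinal reductase, was higher in Glut5 KO in both, at 0.53 (-0.02 to 1.07) and 0.35 (0.30 to 0.40). The difference between these cells and the rest was not tested over samples.

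**Figure D4:**
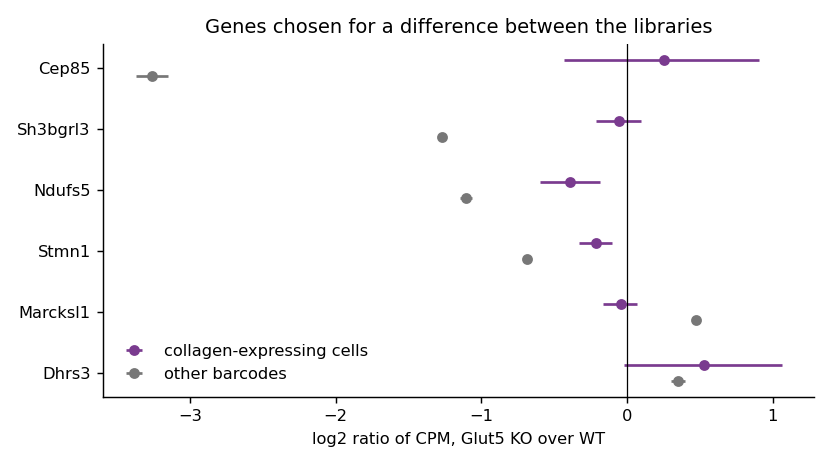
Log2 ratio of CPM, Glut5 KO over WT, for 6 genes in the collagen-expressing cells (purple) and in the other filtered barcodes (grey), with 95% intervals that cover counting error only. Sh3bgrl3 and Cep85 lie near 0 in the collagen-expressing cells and at -1.27 and -3.26 in the rest.

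Over the summed UMIs of the cells (3383513 in WT and 1687643 in Glut5 KO), 9038 genes had at least 50 UMIs. Of these, 545 (6.03%) were at least 1.5-fold higher in Glut5 KO and 337 (3.73%) at least 1.5-fold lower, with a median log2 ratio of -0.02. Over the 10891 genes with at least 20 UMIs, the minimum used for lists, the shares were 8.85% and 5.45%. Each list count below is to be read beside those 2 shares. All these counts are sizes in 1 pair of libraries, and counts of genes say nothing of chance here. RNA quality differed too: Gm42418, a predicted gene that overlaps a ribosomal RNA repeat, reached at least 200 UMIs per 10000 in 34 of 208 WT (16.3%) and 53 of 133 Glut5 KO cells (39.8%). Those cells were shallow (medians 5806 and 4054 UMIs), and the same share was 10.5% and 22.2% in the other barcodes. The part of this in the ratios was not tested beyond the values given without such cells.

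In summed UMIs, collagen and basement membrane genes were mostly within 1.5-fold. None of the 7 fibrillar collagens was 1.5-fold apart (median log2 ratio 0.07), from Col5a2 at -0.13 to Col1a1 at 0.46. Col1a1 stood at 1171 CPM (1135 to 1208) in WT and 1611 (1551 to 1672) in Glut5 KO, and its log2 ratio was 0.34 without the highest cell of each library. Per cell the libraries stood further apart: the summed fibrillar list had a median of 19.8 UMIs per 10000 in WT and 34.9 in Glut5 KO, and 13.9% and 27.8% of cells held at least 100. The gap was smaller without the cells high in Gm42418, with medians of 18.3 and 23.3 and shares of 12.6% and 20%. Among the cells high in Gm42418 the medians were 49.8 and 75.2 and the shares 20.6% and 39.6%. With equal weight per cell the list's median log2 ratio was 0.47 and Col1a1 was at 0.89, and in cells with no C1q or Lyz2 UMI Col1a1 was at 1.003. Of 13 measured basement membrane genes, 12 were within 1.5-fold, with Col4a1 at 842 and 849 CPM (0.01), Col4a2 at 324 and 310 (-0.06) and the laminin Lamb1 at 172 and 168. Nid2, at 20 and 2 UMIs, was the exception. Of the 16 collagen processing genes (median -0.22), 13 were within 1.5-fold and 3 lower: Plod1 (-0.68) and P3h1 (-0.66), which hydroxylate collagen, and Loxl2 (-1.24), which crosslinks it. Among 22 matrix glycoproteins, Tnc (1.30), Eln (1.12) and Ccn2 (1.004) were higher and Igfbp7 (-0.71) and Lum (-0.62) lower. Without the cells high in Gm42418, Tnc was at -0.035 and Eln at -0.85, and without the Col1a2-bearing and Cldn5-bearing cells Igfbp7 was at 0.78. In cells with no C1q or Lyz2 UMI Lum was at 0.029. Of 15 measured TGF-beta genes, 13 were within 1.5-fold, and the ligands Tgfb1, Tgfb2 and Tgfb3 stood at 0.15, -0.17 and -0.13.

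Interferon-response genes were higher in the Glut5 KO library. Of 19 measured type I interferon genes, 13 were at least 1.5-fold higher and none lower (median log2 ratio 0.74, against -0.01 over all genes with at least 20 UMIs). Ifit1, an RNA-binding antiviral protein, stood at 146 CPM in WT and 372 in Glut5 KO (1.35), Isg15, a ubiquitin-like modifier, at 922 and 1544 (0.74), and Ifit3b was the highest at 1.44. Of the 627 Ifit1 UMIs in Glut5 KO, 209 came from 1 cell. Without the highest cell of each library the Ifit1 ratio was 0.99. Bst2 (0.14) and Ifi35 (0.10) were nearly level. In the other barcodes Ifit1 and Ifit3b were also higher in Glut5 KO, with log2 ratios of 0.59 and 0.86. Cluster 3, which these genes lead and where Ifit1 stood at 1296 CPM against 32.7 to 136 in the others, held 34 of 208 WT and 54 of 133 Glut5 KO cells. That cluster was also the richest in Gm42418. The summed list ran from 0 through a median of 13.9 to 595 UMIs per 10000 in WT cells and from 0 through 25.7 to 433 in Glut5 KO cells, so the libraries overlap over most of their range. Cells with at least 100 per 10000 numbered 24 in WT (11.5%) and 37 in Glut5 KO (27.8%). Among cells high in Gm42418 these shares were 29.4% and 32.1%, and among the others 8.05% and 25%. The list's median was 0.66 without the cells high in Gm42418 and 0.58, just under 1.5-fold, without the cells with at least 20 leukocyte-list UMIs per 10000.

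The interferon gamma list leaned the same way, with 9 of 18 genes higher and 1 lower (median 0.60), but its median was under 1.5-fold in 6 of its alternatives. Nlrc5 (1.37) and the GTPase Tgtp2 (1.35) were the highest, Gbp2 was level (0.05), and Cxcl9, a T cell attractant, was lower: 320 UMIs in 32 WT cells and 68 in 18 Glut5 KO cells, 94.6 and 40.3 CPM (-1.22). In the other barcodes Tgtp2 was at 0.76 and Cxcl9, higher there in Glut5 KO, at 0.42. MHC class I genes, which interferons also raise, were level: 17 of 18 were within 1.5-fold, with H2-K1 at 1299 and 1212 CPM and B2m at 1759 and 1779.

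MHC class II transcripts were higher in the Glut5 KO library, with 5 of 6 measured genes at least 1.5-fold higher (median log2 ratio 1.41). This was not particular to these cells: in the other barcodes H2-Eb1 and H2-Aa had log2 ratios of 0.88 and 0.75, against 1.76 and 1.35 here. Cd74 stood at 294 CPM in WT, in 48 cells, and 846 in Glut5 KO, in 50 cells (1.52, and 0.41 in cells with no C1q or Lyz2 UMI). The class II UMIs came from few cells: the 42 WT and 27 Glut5 KO cells with at least 4 macrophage genes held 93.8% and 96.8% of them. In the cells with fewer macrophage genes the list summed to 48.7 and 79.4 CPM. At 2000 UMIs per cell Cd74 was found in 7.04% of WT and 24.2% of Glut5 KO cells. Lymphocyte-marked barcodes held it in 64.7%, and since B cells express it they give no background for this gene. The macrophage list itself summed to 573 CPM in WT and 800 in Glut5 KO. The part of leukocyte RNA in this result was not tested.

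Cell cycle genes leaned lower in Glut5 KO. Of 32 genes, 7 were at least 1.5-fold lower and none higher (median -0.24). The 7 were genes of mitosis: Cdc20 (-0.79), Plk1 (-0.78), Cenpe (-0.75), Ccnb2 (-0.73), Aurka (-0.65), Birc5 (-0.65) and Ccnb1 (-0.59). Pcna, a clamp of DNA replication, stood at 110 and 107 CPM. Cluster 1, where Mki67 was highest, held 48 of 208 WT and 19 of 133 Glut5 KO cells. At 2000 UMIs per cell Top2a was found in 24.6% (18.8 to 31.2) of WT and 12.5% (7.17 to 19.8) of Glut5 KO cells, and Mki67 in 6.53% and 5.83%. Lymphocyte-marked barcodes, which can divide too, held Top2a in 8.80% and Mki67 in 8.47%. With each cell given equal weight the list's median was -0.65.

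Among 16 chemokine and cytokine genes 7 were higher and 5 lower, and several rested on few cells: Ccl19 came from 2 WT cells (81 UMIs) and Cxcl1 gave 68 UMIs in 7 WT cells and 2 in Glut5 KO. Cxcl10, which attracts T cells, was at 591 and 912 CPM (0.63), and Ccl2, which attracts monocytes, at 223 and 349 (0.65). Of 12 angiogenic genes, the Notch ligand Jag1 (0.74) and Fgf2 (0.85) were higher, and Adm (37 UMIs in 2 WT cells, 1 in Glut5 KO), Angptl4 (-0.69) and Angpt2 (-0.77, but 0.34 without the Col1a2-bearing and Cldn5-bearing cells) lower. Vegfa was at 40.5 and 60.4 CPM (0.58). Of 20 immediate early genes, which answer stress and dissociation within minutes, only Btg2 passed 1.5-fold (0.62). All 34 respiratory chain genes were within it.

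**Figure D5:**
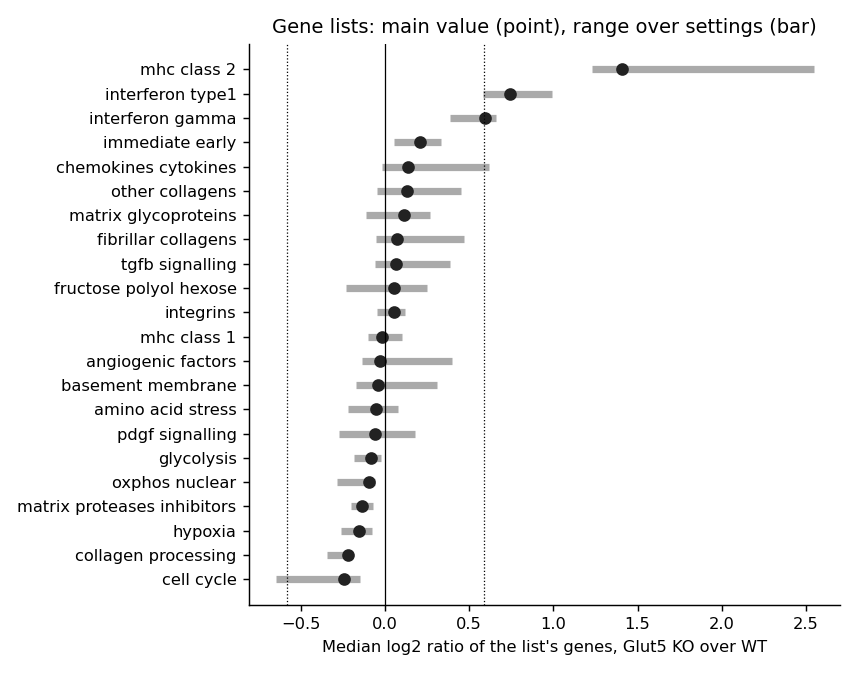
Median log2 ratio, Glut5 KO over WT, of the measured genes of 22 lists (points), with the lowest and highest value over all settings tried (grey bars) and dotted lines at 1.5-fold. MHC class II and type I interferon lie highest, at 1.41 and 0.74, and the collagen and basement membrane lists lie near 0.

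By the naming rule, 12 genes at each end were taken from 3585 ranked genes. At the low end, Col10a1, a collagen of growth plate cartilage, gave 173 UMIs in 6 WT cells, 87 of them in 1 cell, and 0 in Glut5 KO, at least 28.8-fold lower against 3 counts. Vtn (171 and 8 UMIs) rested largely on the Col1a2-bearing WT cells described above, and its ratio without the small sets was -0.70. Sparcl1, a secreted relative of Sparc, gave 399 UMIs in 31 cells and 59 in 19 (-1.74). Its ratio was -1.18 without the Col1a2-bearing and Cldn5-bearing cells and -0.69 in cells with no C1q or Lyz2 UMI. Acta2 gave 560 and 121 (-1.20), with -0.65 without the highest cells and -0.33 in cells with no C1q or Lyz2 UMI. Cxcl9, Ecrg4 (-1.01), Rflnb (-0.93), Pgf, a placental growth factor (-0.91), Tmem121 (-0.88), Inava (-0.85), Cxxc5 (-0.85) and Pmpca (-0.81) followed. Of these, Rflnb, Tmem121, Inava, Cxxc5 and Pmpca were each spread over more than 100 WT cells and no cell held over 18 UMIs.

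At the high end, all 219 Reg3g UMIs came from 1 Glut5 KO cell, so its ratio describes that cell. Pcsk1n (45 and 105 UMIs, 2.22), the growth factor Areg (43 and 91, 2.08) and Ccl4 (82 and 114, 1.48) were held by 8 to 27 cells in each library, and Areg was at -1.22 in the cells with no C1q or Lyz2 UMI. H2-Eb1 (1.76) and H2-Aa (1.35) belong to the class II list, and Ifit3b, Ifit1 and Tgtp2 to the interferon lists. Ghr, the growth hormone receptor, was spread more widely, with 144 UMIs in 70 WT and 202 in 62 Glut5 KO cells (42.6 and 120 CPM, 1.49, the same without the highest cells). Zfpm2, a GATA cofactor, was found in 46 and 45 cells (1.48) and Tnc, a matrix glycoprotein of wounds and tumours, in 54 and 44 (1.30).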

How the data were processed

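Single-cell counts were taken from the filtered matrix of each library as deposited by the authors: UMI counts per gene and barcode, not normalized, for 2 libraries, 1 per genotype. The submitters' processing notes name Cell Ranger 3.1.0 and the mm10 build, whereas the matrix header names cellranger 7.0.1. Depth was 116105873 UMIs over 11495 barcodes in WT and 96851696 over 12165 in Glut5 KO; under 300 genes removed 2 and 26 barcodes and the mitochondrial limit 20 and 27.

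The members, gene lists and comparisons were chosen with earlier results of these data known. Counts were summed over members per library and compared as log2 ratios of CPM with 0.5 counts added, a method tested on simulated data. A gene was counted as different at 1.5-fold or more. Genes named were the 12 highest and 12 lowest ratios with at least 50 UMIs and 50 CPM in 1 library (no mitochondrial, ribosomal, sex-linked, haemoglobin, predicted, immunoglobulin, T cell receptor or leukocyte marker genes), the extremes of each list, the genes of the rule and those that define a cell type. Members were clustered with scanpy 1.11.5 (2000 variable genes, 20 components, 15 neighbours, Leiden). Doublets were scored with Scrublet in scanpy: 12 WT and 3 Glut5 KO members fell in the top 8% of their library and were kept, except in an alternative. Promoters came from RefSeq's table. Some single genes of the lists are counted in them but not reported here by name.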

Additional observations from a re-analysis of the deposited data

Results flagged for a closer look

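For 2 of the genes with at least 20 UMIs that were chosen for a difference between the libraries, the collagen-expressing cells and the other barcodes pointed opposite ways. Cep85 had a log2 ratio (Glut5 KO over WT) of 0.26 in the collagen-expressing cells and -3.26 in the other barcodes. Marcksl1, an actin-binding protein, had -0.044 and 0.47. The difference was not tested, since each genotype has 1 library, and the interval of each value in the collagen-expressing cells includes 0. Fam167b, of the same set but with fewer UMIs, gave 14 UMIs in 2 WT cells (11 of them in 1 cell) and 0 in Glut5 KO, against a log2 ratio of 1.17 in the other barcodes.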

How the results depend on the processing

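No paired analysis was possible because each genotype has 1 library. Across the settings tried, 198 of 215 summary values kept their direction and their side of the 1.5-fold limit or their range. The genes at least 1.5-fold higher and lower numbered 545 and 337, and became 1282 and 939 with equal weight per cell, 964 and 594 at a minimum of 20 UMIs, and 125 and 50 at 200 UMIs, where fewer genes were tested. The interferon gamma median (0.60) was 0.39 with equal weight per cell, 0.54 with at least 10 collagen UMIs, 0.42 without cells rich in leukocyte transcripts, and, in alternatives chosen after seeing the data, 0.50 without cells high in Gm42418, 0.56 without Col1a2-bearing and Cldn5-bearing cells, and 0.50 in cells with no C1q or Lyz2 UMI. The type I interferon median was 0.58 without cells rich in leukocyte transcripts. The cell cycle median (-0.24) ran from -0.65, with equal weight per cell, to -0.15. The chemokine median was 0.62 without Col1a2-bearing and Cldn5-bearing cells. The share of cells in a cluster led by 3 fibroblast markers was 17.9%, and 31.4% at resolution 0.25 and 0% at resolution 1. Of the single genes reported that were at least 1.5-fold apart, these changed direction: without cells high in Gm42418, Tnc to -0.035 and Eln to -0.85; without Col1a2-bearing and Cldn5-bearing cells, Igfbp7 to 0.78 and Angpt2 to 0.34; with no C1q or Lyz2 UMI, Areg to -1.22, Igfbp7 to 0.14, Lum to 0.029 and Angpt2 to 0.56. Genes within 1.5-fold also changed sign: in cells with no C1q or Lyz2 UMI Col5a2 was at 0.23, Col4a2 at 0.57, Tgfb2 at 0.12 and Sh3bgrl3 at 0.10. Col1a2 (0.07) ran from -2.07 to 0.75 over the settings. Beyond fewer genes or cells, the cause was not tested.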
